A study of Rattus norvegicus with 9 samples.

Results

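RNA of cirrhotic rat livers that had received HepLPCs, which are progenitor-like cells made from hepatocytes, was compared with that of cirrhotic livers injected with phosphate-buffered saline (PBS), to read the effect of the cells across genes. The libraries were taken by their titles and number 6 of the 9 in the series, 3 per group. All came from whole liver of wild-type Sprague-Dawley rats aged 5 months. The PBS group had cirrhosis and a saline injection. The HepLPC group had cirrhosis and an injection of rat HepLPCs. The other 3 libraries came from normal rats that had neither carbon tetrachloride (CCl4), a liver toxin, nor transplanted cells. Their levels are set beside the results without a test of their own. These 3 also entered the fit and share in the estimate of spread behind each p-value. Sex, dose of cells, route and time after injection are not given in the sources used here.

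In cirrhosis, hepatic stellate cells turn into myofibroblasts that lay down collagen, and macrophages recruited from the blood gather along the scar. Duct-like cells spread from the portal tracts, a change called the ductular reaction, and stressed hepatocytes switch on the antioxidant programme of the transcription factor NRF2 and genes of the fetal liver. The normal work of the hepatocyte, which covers plasma proteins, urea, bile acids, lipids and drug metabolism, is carried by a large set of very abundant transcripts.

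Levels are reads per kilobase per M reads (RPKM) as deposited. Differences are HepLPC minus PBS on log2(RPKM + 1), which understates the change of genes near 0, and a gene was called where limma gave it an adjusted p (Benjamini-Hochberg) under 0.05. Reads recovered from the RPKM steps came to between 17.4 and 21.8 M per library. Hepatocyte markers marked every library as liver: albumin (Alb) lay between 47139 and 64031 RPKM in the 6 libraries, and Clec4f of Kupffer cells and Lyve1 of sinusoidal endothelium were present in all. PBS replicate 1 and HepLPC replicate 2 stood apart. In both, longer genes lay further below the group mean (Spearman correlation across genes -0.564 and -0.528, against -0.157 to 0.423 in the other 7 libraries), so counts are also given without these 2 libraries. The labels do not say that replicates are separate animals, so the p-values reflect spread among samples that may in part be technical. In bulk liver, fewer cells of a type and less RNA per cell cannot be told apart, and neither can RNA of injected and host cells, since both are rat.

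Gene expression after the cells differed from that after saline mainly downward. Of 11124 tested genes 341 were called (3.07%), of which 326 fell (2.93%) and 15 rose (0.135%). Counts within the gene lists below stand beside these shares, and a short list at the same shares would hold few calls or none. In all 341 the 3 HepLPC values did not overlap the 3 PBS values, while such separation was seen in 18.4% of all tested genes, 15.6% with HepLPC lower and 2.79% with HepLPC higher. The 326 falls had a median of -1.02, and 29 of them were at -2 or beyond. The 15 rises had a median of 0.92. Over all genes the median difference was -0.14 and 73.9% of genes lay below 0. After rescaling each library by the median of its ratios, that median was 0.01 and the calls were 183 lower and 21 higher. Of the calls made on the deposited scale, 196 remained called after rescaling, which is 57.5% of them and 96.1% of the rescaled calls. Without the 2 libraries that stood apart there were 364 lower and 26 higher, with 228 calls shared. Single libraries weighed on the counts. There were 90 lower and 0 higher without PBS replicate 3, 100 and 2 without HepLPC replicate 1, and 187 and 11 without HepLPC replicate 2. Without normal replicate 1, 2 or 3, which enter through the shared estimate of spread, there were 215, 210 or 203 lower and 10, 5 or 9 higher. With the 6 PBS and HepLPC libraries alone there were 82 lower and 4 higher. Of the 341 calls 79 (23.2%) were shared with that fit.

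**Figure D1:**
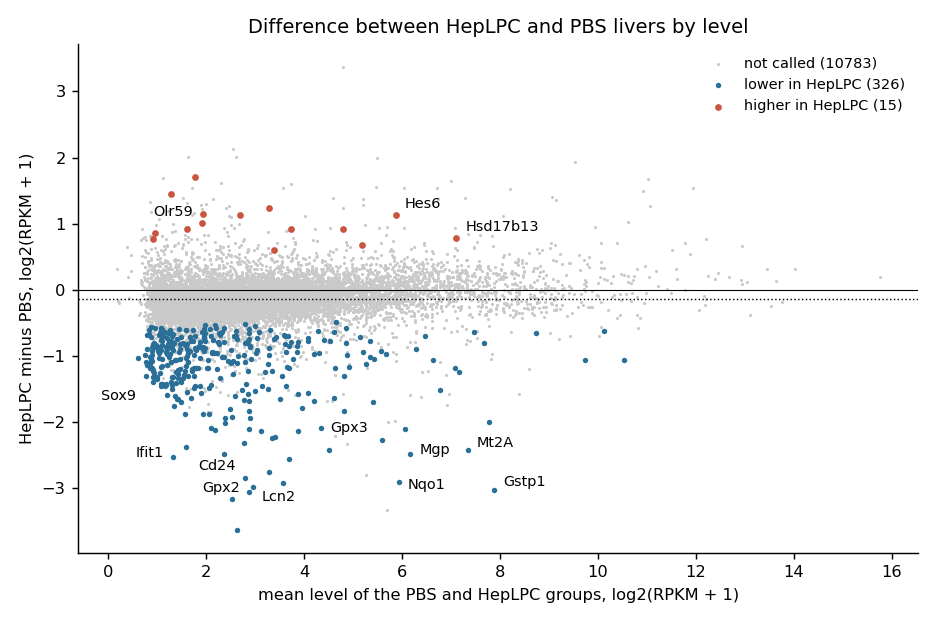
Difference between HepLPC and PBS livers on log2(RPKM + 1), vertical axis, against the mean level of both groups, horizontal axis, for 11124 genes. Blue points are the 326 genes called lower, red points the 15 called higher, and the dotted line is the median of all genes at -0.14; the calls lie almost all below 0, at low and high levels alike.

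The 7 genes that mark the comparison are given library by library. Those of them that fell lie beyond the median fall of -1.02, so they do not show the usual size of the change. Their separation is a description and not a test. Gpx2, a glutathione peroxidase best known from gut epithelium, was at 19.9, 20.4 and 17.7 RPKM in PBS replicates 1 to 3 and 0.615, 0.972 and 3.47 RPKM in HepLPC replicates 1 to 3 (log2 difference -3.07, SE 0.32, adjusted p = 0.00248). The PBS libraries lay close together and far above each HepLPC library, with a ratio of means of 11.5. Mgp, the matrix Gla protein that keeps tissue from calcifying, was at 137, 197 and 170.3 RPKM in PBS replicates 1 to 3 and 22.7, 25.7 and 40.8 RPKM in HepLPC replicates 1 to 3 (log2 difference -2.49, SE 0.22, adjusted p = 0.00177). Both groups were tight, and the means differed 5.65-fold. Lcn2, lipocalin 2, an iron-trapping protein of injured epithelium, was at 13.1, 37.3 and 13.96 RPKM in PBS replicates 1 to 3 and 0.829, 1.24 and 2.96 RPKM in HepLPC replicates 1 to 3 (log2 difference -2.99, SE 0.42, adjusted p = 0.00795). PBS replicate 2 was the highest of its group, and the lowest PBS value still exceeded the highest HepLPC value. Sox9, a transcription factor of duct cells, was at 1.89, 2.86 and 2.79 RPKM in PBS replicates 1 to 3 and 0.2695, 0.231 and 0.399 RPKM in HepLPC replicates 1 to 3, low levels that nevertheless did not overlap (log2 difference -1.42, SE 0.14, adjusted p = 0.00197). Cd24, a surface protein of duct and progenitor cells, was at 8.47, 31.3 and 16.2 RPKM in PBS replicates 1 to 3 and 2.05, 1.17 and 1.15 RPKM in HepLPC replicates 1 to 3 (log2 difference -2.84, SE 0.38, adjusted p = 0.00578). The PBS values of Cd24 spread widely, with replicate 2 on top, and the HepLPC values were all low.

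Hsd17b13, a lipid droplet protein of hepatocytes, went the other way. It was at 115, 102 and 96.6 RPKM in PBS replicates 1 to 3 and 193, 180.0 and 165 RPKM in HepLPC replicates 1 to 3 (log2 difference 0.78, SE 0.14, adjusted p = 0.0185), higher in all 3 HepLPC libraries. Normal livers held 217, 198 and 250.5 RPKM of it. Calls of these 7 genes were lost in no alternative setting that tested them for Gpx2, Mgp, Lcn2, Sox9 and Cd24, in 1 of 21 for Ifit1, described with the interferon genes, and in 5 of 22 for Hsd17b13.

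**Figure D2:**
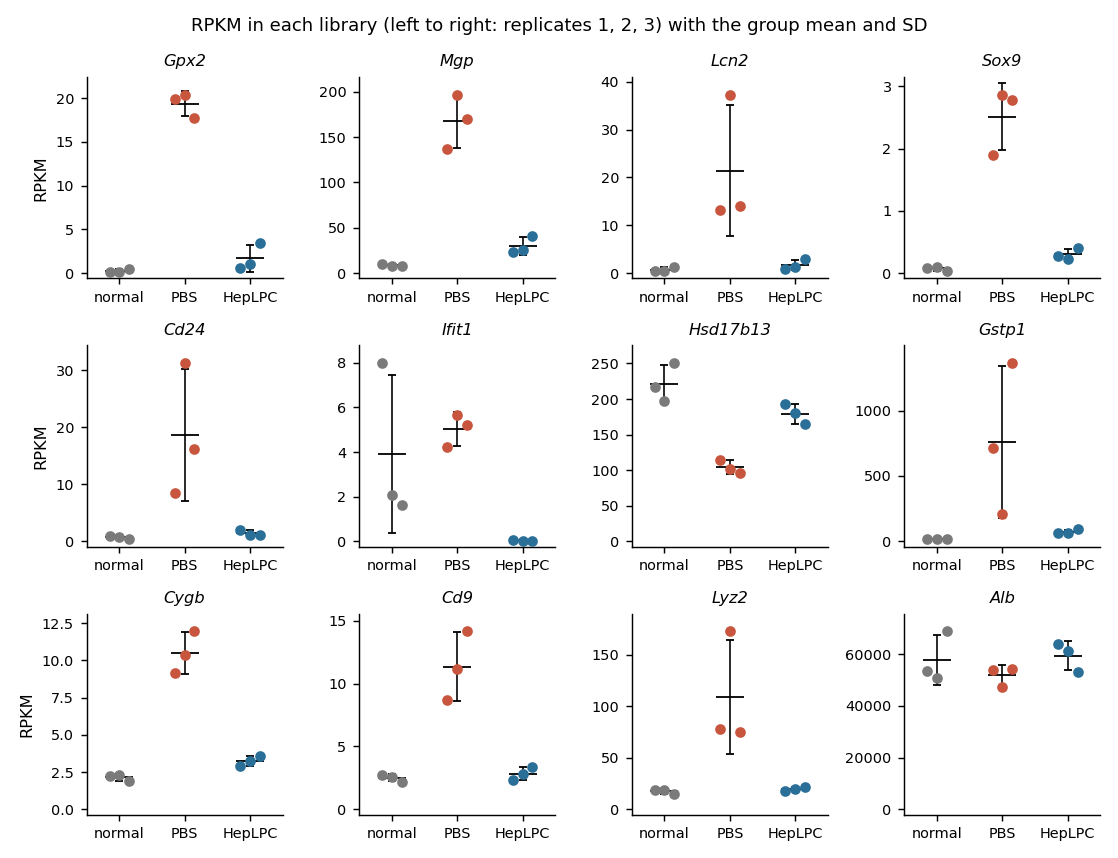
RPKM of 12 genes in each of the 9 libraries, with the mean and SD of each group of 3 (grey normal, red PBS, blue HepLPC). The PBS and HepLPC points do not overlap for the 7 genes that mark the comparison or for Gstp1, Cygb, Cd9 and Lyz2, while those of Alb do.

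Genes of the bile duct epithelium fell almost as a group. Of 18 tested duct markers 14 fell and none rose, with a median of -1.39 against -0.14 over all genes, and 13 fell without the 2 libraries that stood apart. There were 5 to 15 falls when 1 library was left out, fewest without HepLPC replicate 1 or PBS replicate 3. All 18 differences lay below 0, also after rescaling. The summed level of the whole list of 22 was 84.5 to 245 RPKM in PBS, 20.2 to 35.5 RPKM in HepLPC and 17.8 to 21.5 RPKM in normal livers. Krt19, the cytokeratin of biliary epithelium, stood at 5.53, 31.3 and 10.9 RPKM in PBS replicates 1 to 3 and 1.61, 1.27 and 2.41 RPKM in HepLPC replicates 1 to 3. Its group means differed 8.998-fold (log2 difference -2.32, SE 0.47, adjusted p = 0.0346), the call was lost in 12 of 22 alternatives, and PBS replicate 2 held the highest value by far. Epcam, an adhesion protein of duct and progenitor cells, was at 20.6, 36.8 and 27.1 RPKM in PBS replicates 1 to 3 and 8.36, 6.48 and 11.6 RPKM in HepLPC replicates 1 to 3 (log2 difference -1.57, SE 0.24, adjusted p = 0.0109), and the HepLPC values overlapped those of normal livers (8.43, 7.98 and 6.404 RPKM). Among the transcription factors, Ehf fell with Sox9 (by 1.46 and 1.42), while Elf3 differed by -1.15 (adjusted p = 0.101).

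The transport and surface proteins of the duct wall moved together. Cftr, the chloride channel of duct secretion, fell by 1.31, Sctr, the secretin receptor, by 1.43, the claudins Cldn4 and Cldn7 by 1.40 and 1.39, the mucin Muc1 by 1.04, the cilia gene Bicc1 by 1.33 and Prom1, a progenitor surface protein, by 1.18. Cftr was at 1.15, 3.22 and 1.77 RPKM in PBS replicates 1 to 3 and 0.225, 0.112 and 0.196 RPKM in HepLPC replicates 1 to 3, so even the injured liver held little of it. Ggt1, gamma-glutamyl transferase of ducts and of altered hepatocytes, was at 12.3, 5.77 and 17.00 RPKM in PBS replicates 1 to 3 and 0.986, 1.15 and 1.17 RPKM in HepLPC replicates 1 to 3 (log2 difference -2.48, SE 0.29, adjusted p = 0.00435), a fall that no alternative lost. Krt7, a defining duct keratin, was under the filter at 0.128, 4.21 and 0.578 RPKM in PBS replicates 1 to 3 and 0.0473, 0.0236 and 0.0787 RPKM in HepLPC replicates 1 to 3, and PBS replicate 2 alone was above 1 RPKM. Of 20 genes of epithelial junctions and keratins, which hepatocytes share, 2 fell: Krt20 by 1.55 (lost in 11 of 21 alternatives) and Krt8 by 1.18 (lost in 0 of 22). Krt8, a keratin of hepatocytes and ducts alike, was at 192, 205 and 209.8 RPKM in PBS replicates 1 to 3 and 74.2, 85.6 and 109 RPKM in HepLPC replicates 1 to 3 and E-cadherin (Cdh1) at 19.6, 33.8 and 31.6 RPKM in PBS replicates 1 to 3 and 22.6, 20.2 and 32.3 RPKM in HepLPC replicates 1 to 3 (adjusted p = 0.736). Krt8 separated cleanly while Cdh1 overlapped.

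Several called genes outside the lists belong to epithelia too. These were named after their values were seen. Spint1, a protease inhibitor of epithelial cells, was at 3.34, 3.62 and 4.104 RPKM in PBS replicates 1 to 3 and 0.294, 0.4398 and 0.396 RPKM in HepLPC replicates 1 to 3, with little spread in either group (log2 difference -1.77, SE 0.12, adjusted p = 0.000723). Kif12, a kinesin of kidney and bile duct cells, fell by 1.89, Pkd2, polycystin 2 of the primary cilium, by 0.97, Ddr1, a collagen receptor of epithelia, by 1.43, Emp1, an epithelial membrane protein, by 1.81 and Fgfr3, a growth factor receptor, by 1.53. The part of a changed number of duct cells in these falls was not tested.

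Of 9 tested fetal liver and progenitor genes 5 fell (median -1.08), and 3 fell without the 2 libraries, with 2 to 5 falls when 1 library was left out, fewest without HepLPC replicate 2. Sox4, a transcription factor of immature epithelium, was at 4.97, 5.92 and 7.01 RPKM in PBS replicates 1 to 3 and 1.24, 1.603 and 1.59 RPKM in HepLPC replicates 1 to 3 (log2 difference -1.48, SE 0.14, adjusted p = 0.00187). The surface proteins Tspan8, Gpc3 and Cd44 fell by 2.11, 1.66 and 1.65, and Tnfrsf12a, the receptor of the mitogen TWEAK, by 1.08. Afp, alpha-fetoprotein, was at 15.4, 12.5 and 13.2 RPKM in PBS replicates 1 to 3 and 12.5, 20.9 and 12.8 RPKM in HepLPC replicates 1 to 3 and did not pass (adjusted p = 0.757). Afp levels thus overlapped between the groups, and the highest value stood in HepLPC replicate 2.

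Antioxidant genes were lower after the cells. NRF2 switches on genes for glutathione synthesis, detoxification and NADPH supply through the antioxidant response element. Of 26 tested targets 10 fell, none rose, and all 26 differences lay below 0, with a median of -0.98. The list gave 2 to 13 falls when 1 library was left out, fewest without HepLPC replicate 2 or PBS replicate 3. The count was 6, with 25 differences below 0, after rescaling and 2 without the 2 libraries that stood apart, while the median was -0.92 without them. The summed level of the list was 7106 to 10820.0 RPKM in PBS, 5159 to 6397 RPKM in HepLPC and 4816 to 5458 RPKM in normal livers.

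Gstp1, the pi-class glutathione transferase that marks altered hepatocytes in rats, was at 714, 205 and 1362 RPKM in PBS replicates 1 to 3 and 61.6, 62.9 and 90.8 RPKM in HepLPC replicates 1 to 3. The PBS values differed several-fold among themselves, yet the lowest exceeded all HepLPC values (log2 difference -3.03, SE 0.55, adjusted p = 0.0206), and normal livers held 18.3, 17.1 and 14.6 RPKM. The call had an adjusted p of 0.0853 without the 2 libraries, at a difference of -2.804. Nqo1, a quinone reductase and the classic NRF2 target, was at 135, 89.6 and 259 RPKM in PBS replicates 1 to 3 and 39.5, 9.79 and 16.6 RPKM in HepLPC replicates 1 to 3 (log2 difference -2.904, SE 0.53, adjusted p = 0.0211). Akr7a3, an aldehyde reductase, was at 472, 311 and 538 RPKM in PBS replicates 1 to 3 and 135, 106 and 84.1 RPKM in HepLPC replicates 1 to 3 (log2 difference -2.0004, SE 0.36, adjusted p = 0.0207). In each of these genes PBS replicate 2 was the lowest PBS library, whereas it was the highest in Krt19, Cd24 and Epcam. Other members went the other way: PBS replicate 2 was the highest in the NRF2 target Gpx2 and the lowest in Ggt1 of the duct list.

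Members with other roles fell as well. Srxn1, which repairs peroxiredoxins, fell by 1.59, Txnrd1, thioredoxin reductase, by 1.12, Gsr, glutathione reductase, by 0.89, Ephx1, an epoxide hydrolase, by 1.06 and the exporter Abcc3 by 2.09. Glutathione synthesis split at the threshold: the modifier subunit Gclm fell by 1.24 (adjusted p = 0.0389), and the catalytic subunit Gclc differed by -1.25 (adjusted p = 0.0516). Akr1b8 and Aldh3a1, enzymes that clear aldehydes, had large differences of -1.997 and -2.33 that did not pass (adjusted p = 0.142 and 0.0614). Aldh3a1 was at 75.8, 20.5 and 109 RPKM in PBS replicates 1 to 3 and 5.58, 9.58 and 19.4 RPKM in HepLPC replicates 1 to 3, where the lowest PBS value was close to the highest HepLPC value. Hmox1, haem oxygenase, which macrophages also express, was at 27.3, 16.3 and 17.7 RPKM in PBS replicates 1 to 3 and 15.5, 20.9 and 19.3 RPKM in HepLPC replicates 1 to 3 (adjusted p = 0.797), with overlapping groups. The NADPH enzymes Pgd and Me1 differed by -0.79 and -0.32 (adjusted p = 0.0855 and 0.639).

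Among 19 genes that remove peroxides, 2 fell, Gpx2 and Gpx3. Gpx3, the secreted plasma glutathione peroxidase, was at 38.1, 41.9 and 42.4 RPKM in PBS replicates 1 to 3 and 7.95, 11.1 and 7.61 RPKM in HepLPC replicates 1 to 3 (log2 difference -2.097, SE 0.15, adjusted p = 0.000932). Its groups were among the tightest of all named genes, and normal livers held 5.83, 4.67 and 5.89 RPKM. Prdx1, an abundant peroxiredoxin, differed by -0.23 (adjusted p = 0.556). Of 15 tested genes that mark preneoplastic foci in rat liver, mostly enzymes, 9 fell (median -1.997). The called Gstp1, Nqo1, Abcc3, Akr7a3 and Ephx1 are shared with the NRF2 targets. Ggt1 stands also among the duct markers, Gpc3 and Cd44 among the fetal liver genes and Cyp2c24 among the P450 genes. No fall thus belongs to this list alone. Without the 2 libraries 3 fell. There were 3 to 10 falls when 1 library was left out, fewest without HepLPC replicate 2 or PBS replicate 3. Cyp2c24, a P450 of that list, was at 12.3, 17.6 and 32.3 RPKM in PBS replicates 1 to 3 and 2.08, 1.74 and 8.49 RPKM in HepLPC replicates 1 to 3 (log2 difference -2.23, SE 0.46, adjusted p = 0.0365), lost in 12 of 22 alternatives. Reads of near-identical glutathione transferase and Cyp2c genes may be shared between copies, so single members of these families are uncertain.

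The core of the antioxidant response element was searched as TGACNNNGC on both strands of 300 bases around each gene's start, in promoters of RefSeq (assembly GRCr8). It was found in 12.1% of 33469 promoters and in 14.8% of the 8451 that matched tested genes. Of 19 NRF2 targets with a promoter entry 5 held it: Gpx2, Gstp1, Gclm, Me1 and Prdx1. Of the 8 called targets with an entry 3 held it. The bases before the start of these 3 are shown, since they are the called genes with a match, with the matching letters in capitals. The match lay 13 bases before the start in Gpx2, 61 in Gstp1 and 172 in Gclm. In Gstp1 it is on the strand of the gene, and in Gpx2 and Gclm on the other strand. Each sequence is the strand of the gene, 5′ to 3′: Gpx2 from chr6:101230034-101230283 on the minus strand, Gstp1 from chr1:210769706-210769955 on the minus strand and Gclm from chr2:213031885-213032134 on the plus strand.
Gpx2: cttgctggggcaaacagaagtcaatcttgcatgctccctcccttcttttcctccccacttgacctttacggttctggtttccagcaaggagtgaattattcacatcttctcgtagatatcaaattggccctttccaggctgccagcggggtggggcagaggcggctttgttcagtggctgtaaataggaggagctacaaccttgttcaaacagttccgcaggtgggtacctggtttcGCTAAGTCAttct
Gstp1: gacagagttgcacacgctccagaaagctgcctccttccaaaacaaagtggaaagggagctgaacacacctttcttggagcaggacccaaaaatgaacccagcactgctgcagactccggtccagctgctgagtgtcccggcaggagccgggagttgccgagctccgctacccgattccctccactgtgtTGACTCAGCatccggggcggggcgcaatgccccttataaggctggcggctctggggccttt
Gclm: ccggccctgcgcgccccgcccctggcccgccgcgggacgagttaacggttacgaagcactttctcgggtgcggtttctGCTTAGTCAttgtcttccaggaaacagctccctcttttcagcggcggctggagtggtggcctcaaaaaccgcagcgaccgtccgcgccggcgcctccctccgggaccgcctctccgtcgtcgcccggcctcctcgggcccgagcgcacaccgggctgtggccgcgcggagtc

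Me1 and Prdx1 hold the same core and did not pass the test. A match describes the letters only.

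**Figure D3:**
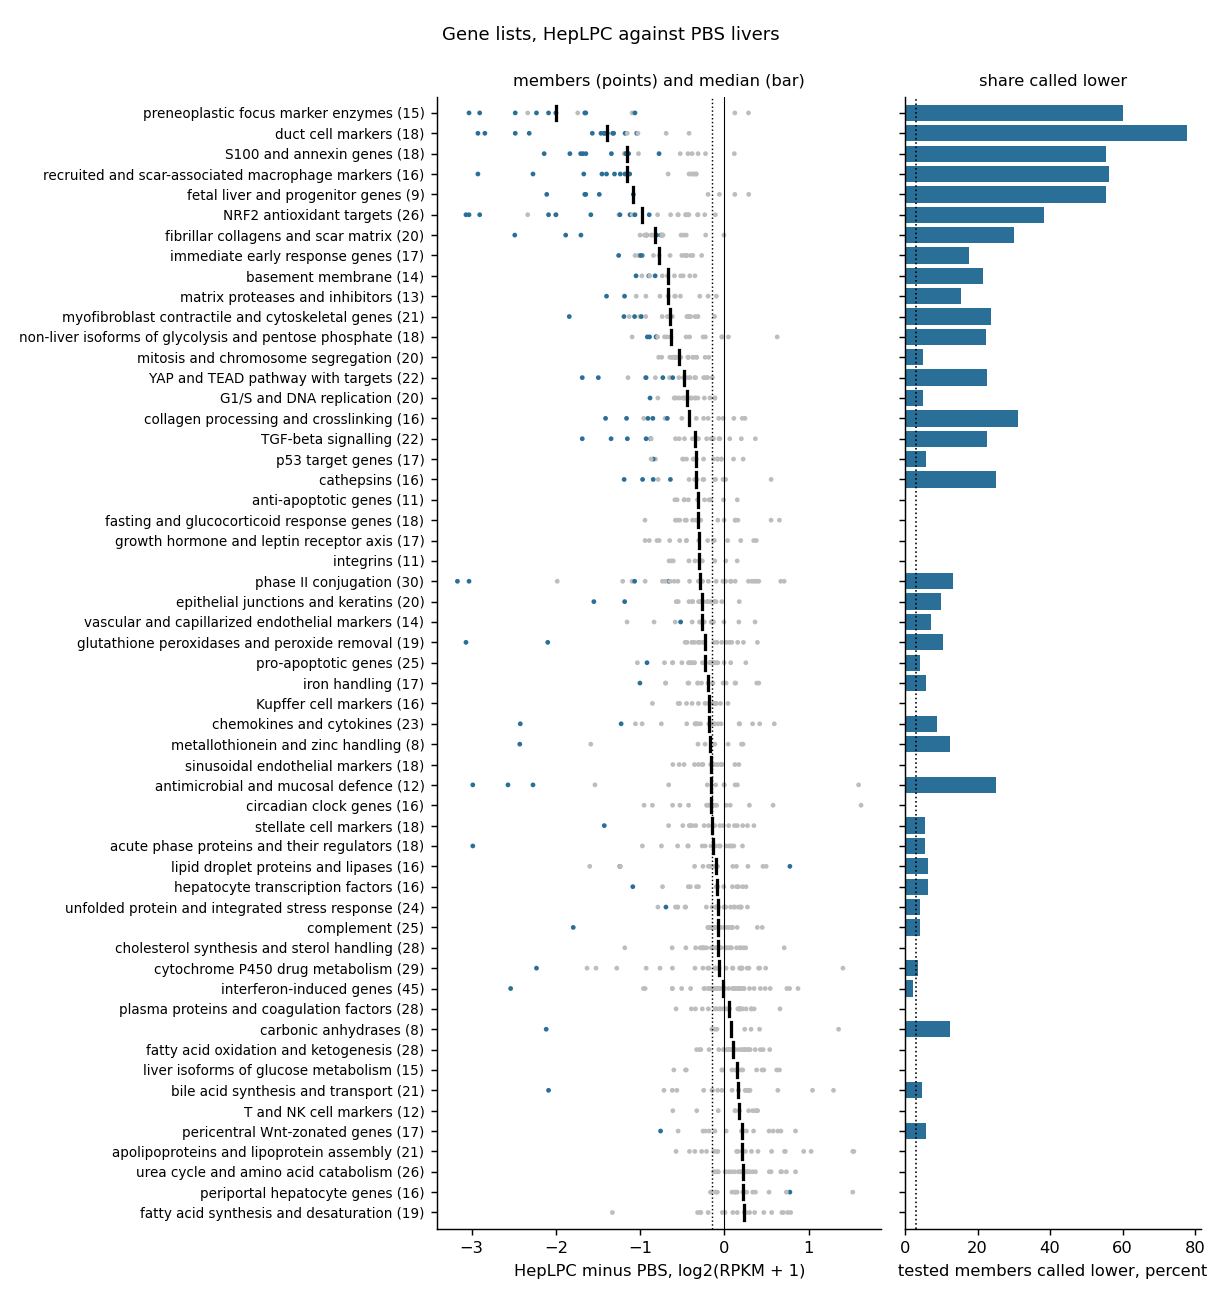
Gene lists with 8 or more tested members (number in brackets), ordered by median. Left, the log2 difference of each member (blue called, grey not called), the median as a black bar and the median of all genes, -0.14, as a dotted line; right, the percent of members called lower beside the 2.93% of all genes (dotted). The markers of preneoplastic foci, duct markers, S100 and annexin genes and recruited macrophage markers stand at the top, and hepatocyte lists at the bottom.

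Genes of the scar fell in part. Of 20 tested genes of fibrillar collagen and scar matrix 6 fell, with all 20 differences below 0 (19 after rescaling) and a median of -0.83, and 8 fell without the 2 libraries that stood apart. The range was 2 to 10 falls when 1 library was left out, fewest without HepLPC replicate 1. The whole list summed to 516 to 785 RPKM in PBS, 304 to 469 RPKM in HepLPC and 259 to 316 RPKM in normal livers. Col1a1, which encodes the type I collagen alpha chain, stood at 3.62, 10.2 and 7.72 RPKM in PBS replicates 1 to 3 and 0.862, 0.656 and 1.91 RPKM in HepLPC replicates 1 to 3 (log2 difference -1.88, SE 0.32, adjusted p = 0.01599). The lowest PBS value, in replicate 1, lay above the highest HepLPC value, in replicate 3. Col3a1, type III collagen, was at 50.9, 76.4 and 66.7 RPKM in PBS replicates 1 to 3 and 31.2, 29.1 and 40.00 RPKM in HepLPC replicates 1 to 3 (log2 difference -0.92, adjusted p = 0.0468), a call lost in 18 of 22 alternatives. Of the elastic fibre genes, Fbln1, fibulin 1, was at 2.94, 4.45 and 4.78 RPKM in PBS replicates 1 to 3 and 0.657, 0.336 and 0.623 RPKM in HepLPC replicates 1 to 3 (log2 difference -1.703, SE 0.17, adjusted p = 0.001904), lost in none of them. Fbln5 and Efemp2 fell by 0.75 and 0.80, calls lost in 7 of 21 and 9 of 21 alternatives. The small proteoglycans did not pass: Dcn, decorin, differed by -1.001, Lum by -0.74 and Bgn by -0.87 (adjusted p = 0.1599, 0.197 and 0.0793), and the matricellular protein Sparc by -0.48 (adjusted p = 0.0852).

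Enzymes that fold and crosslink collagen included 5 falls among 16 tested genes, 3 after rescaling, with 2 to 5 falls when 1 library was left out, fewest without HepLPC replicate 1 or PBS replicate 2 or PBS replicate 3. Loxl1, a lysyl oxidase that crosslinks elastin, was at 2.29, 4.07 and 3.55 RPKM in PBS replicates 1 to 3 and 0.422, 0.717 and 0.656 RPKM in HepLPC replicates 1 to 3 (log2 difference -1.41, SE 0.18, adjusted p = 0.00492). Plod2, a lysyl hydroxylase of collagen, fell by 1.16, the procollagen protease Adamts2 by 0.91, the collagen chaperone Serpinh1 by 0.85 and its partner Fkbp10 by 0.68. Lox itself was at 1.43, 6.199 and 2.06 RPKM in PBS replicates 1 to 3 and 2.396, 8.47 and 1.77 RPKM in HepLPC replicates 1 to 3, without separation (adjusted p = 0.834). Lox was highest in HepLPC replicate 2, and Loxl2 differed by -0.51 (adjusted p = 0.327). Of 14 basement membrane genes 3 fell, and 8 fell without the 2 libraries, with 0 to 7 falls when 1 library was left out, fewest without HepLPC replicate 1 or HepLPC replicate 2 or PBS replicate 3. Col4a1, a chain of type IV collagen, fell by 1.05 and the laminin Lamb1 by 0.90.

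Of 13 tested matrix proteases and inhibitors 2 fell, the macrophage elastase Mmp12 (by 1.40) and the inhibitor Timp2 (by 1.19), and 5 fell without the 2 libraries, with 1 to 4 falls when 1 library was left out, fewest without HepLPC replicate 1 or PBS replicate 3. Timp2 was at 16.4, 19.4 and 19.5 RPKM in PBS replicates 1 to 3 and 7.82, 8.24 and 6.64 RPKM in HepLPC replicates 1 to 3. Those values separated the groups by a wide margin. Timp1, an inhibitor known from fibrosis, was at 8.53, 11.8 and 7.33 RPKM in PBS replicates 1 to 3 and 3.53, 5.97 and 2.66 RPKM in HepLPC replicates 1 to 3 with an adjusted p of 0.0727. Mmp2, a gelatinase of myofibroblasts, was at 6.21, 9.61 and 10.3 RPKM in PBS replicates 1 to 3 and 4.71, 2.65 and 5.002 RPKM in HepLPC replicates 1 to 3 (adjusted p = 0.0628; log2 difference -0.91, adjusted p = 0.0133 without the 2 libraries). Mmp14, which activates Mmp2, overlapped between the groups at 16.6, 24.1 and 20.9 RPKM in PBS replicates 1 to 3 and 21.01, 9.48 and 21.8 RPKM in HepLPC replicates 1 to 3. Of 16 cathepsins and related lysosomal genes 4 fell, among them Ctsk, a collagen-degrading protease (by 0.84), and Ctse (by 1.19). The cathepsin list gave 2 falls after rescaling, 3 without the 2 libraries, and 0 to 3 falls when 1 library was left out, fewest without HepLPC replicate 1 or PBS replicate 3.

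Contractile and cytoskeletal genes of myofibroblasts had 5 falls among 21, with all 21 differences below 0. After rescaling there were 2 falls and 20 differences below 0, and there were 2 to 7 falls when 1 library was left out, fewest without HepLPC replicate 1 or PBS replicate 3. Vim, vimentin of mesenchymal cells, was at 33.1, 39.9 and 35.9 RPKM in PBS replicates 1 to 3 and 12.4, 20.5 and 13.9 RPKM in HepLPC replicates 1 to 3 (log2 difference -1.19, SE 0.19, adjusted p = 0.0135; adjusted p = 0.0613 after rescaling). Tagln2 fell by 0.99, the tubulin Tubb6 by 1.84, the non-muscle myosin Myh10 by 1.07 and the tropomyosin Tpm1 by 0.64. Of these, Tubb6 was called in every alternative, and Myh10 was lost in 11 of 21 of them and Tpm1 in 12 of 22. Acta2 and Tagln, the smooth muscle proteins by which myofibroblasts are known, did not pass. Acta2 was at 3.94, 5.004 and 3.37 RPKM in PBS replicates 1 to 3 and 2.52, 2.44 and 1.77 RPKM in HepLPC replicates 1 to 3 (adjusted p = 0.2099), and Tagln at 11.2, 15.6 and 10.5 RPKM in PBS replicates 1 to 3 and 5.42, 8.36 and 3.77 RPKM in HepLPC replicates 1 to 3 (adjusted p = 0.108). In both genes every PBS value was above every HepLPC value.

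Stellate cell markers had a single fall among 18, with a median of -0.15 against -0.14 over all genes. There were 2 falls without PBS replicate 1 and 3 without the 2 libraries that stood apart. The fall was Cygb, cytoglobin, an oxygen-binding protein of stellate cells, at 9.14, 10.4 and 11.9 RPKM in PBS replicates 1 to 3 and 2.94, 3.23 and 3.62 RPKM in HepLPC replicates 1 to 3 (log2 difference -1.43, SE 0.13, adjusted p = 0.00187). No alternative lost that call. Lrat, which stores vitamin A as ester, was at 7.74, 13.8 and 14.3 RPKM in PBS replicates 1 to 3 and 14.2, 8.11 and 10.3 RPKM in HepLPC replicates 1 to 3 (adjusted p = 0.8303), and Reln, reelin, at 1.48, 3.098 and 3.51 RPKM in PBS replicates 1 to 3 and 2.43, 1.47 and 2.28 RPKM in HepLPC replicates 1 to 3 (adjusted p = 0.625). Both overlapped. Pdgfrb, the receptor that drives stellate cell growth, differed by -0.42 (adjusted p = 0.465) and desmin (Des) by -0.40 (adjusted p = 0.1797). The stellate list of 20 summed to 347 to 382 RPKM in PBS and 312 to 537 RPKM in HepLPC livers, and the part of stellate cell number in the scar genes was not tested.

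TGF-beta, held latent in the matrix by binding proteins, is the main growth factor of fibrosis, and YAP with its TEAD partners answers a stiff matrix. Of 22 TGF-beta genes 5 fell, and of 22 YAP and TEAD genes 5, with Ctgf and Tgfb2 in both lists. After rescaling 3 of each fell, and 5 and 7 fell without the 2 libraries that stood apart. For TGF-beta genes there were 1 to 4 falls when 1 library was left out, fewest without HepLPC replicate 1 or PBS replicate 3, and for YAP and TEAD genes 1 to 6 falls when 1 library was left out, fewest without HepLPC replicate 1 or PBS replicate 3. Of the ligands, Tgfb3 was at 2.17, 3.73 and 4.75 RPKM in PBS replicates 1 to 3 and 1.03, 0.8604 and 1.08 RPKM in HepLPC replicates 1 to 3 (log2 difference -1.15, SE 0.20, adjusted p = 0.01804) and Tgfb2 fell by 0.93. Tgfb1, the ligand of highest level, was at 7.04, 8.52 and 7.26 RPKM in PBS replicates 1 to 3 and 4.97, 4.04 and 5.28 RPKM in HepLPC replicates 1 to 3 and did not pass (adjusted p = 0.0738). The latency proteins Ltbp2 and Ltbp1 fell by 1.35 and 0.88. Ctgf, connective tissue growth factor and a target of both pathways, was at 15.5, 12.8 and 7.67 RPKM in PBS replicates 1 to 3 and 1.91, 5.62 and 2.07 RPKM in HepLPC replicates 1 to 3 (log2 difference -1.69, SE 0.34, adjusted p = 0.0339). HepLPC replicate 2 held the highest HepLPC value, and the call was lost in 13 of 22 alternatives. Of the other YAP targets, F3, tissue factor, fell by 1.496 and Crim1 by 0.73, while Cyr61 and Amotl2 differed by -0.82 and -0.65 (adjusted p = 0.268 and 0.132). Yap1 itself differed by -0.21 (adjusted p = 0.614).

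TEAD proteins bind the letters GGAATG, which were found on either strand in 14.2% of 33469 promoters and 11.3% of those of tested genes. Of 18 genes of the YAP list with a promoter entry 6 held them: Ctgf, Cyr61, Amotl2, Yap1, Ajuba and Nuak2. Ctgf, listed by RefSeq under the symbol Ccn2, was the single called gene among them, and the other 3 called genes with an entry held none in this window. It had 3 copies, which start 166, 101 and 92 bases before the gene. They are shown in capitals on the strand of the gene, from chr1:22624615-22624864 on the minus strand of GRCr8.
Ctgf: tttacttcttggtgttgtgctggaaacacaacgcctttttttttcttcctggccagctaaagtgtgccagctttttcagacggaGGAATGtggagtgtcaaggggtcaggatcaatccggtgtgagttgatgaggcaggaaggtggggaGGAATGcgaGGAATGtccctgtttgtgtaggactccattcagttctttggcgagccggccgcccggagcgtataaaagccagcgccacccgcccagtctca

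S100 proteins and annexins bind calcium, work at membranes and rise in reactive cells of many kinds. Of 18 tested members 10 fell and none rose (median -1.15), and 9 fell without the 2 libraries. Counts ranged over 6 to 10 falls when 1 library was left out, fewest without HepLPC replicate 1 or PBS replicate 3. The list summed to 394 to 444 RPKM in PBS and 167 to 205 RPKM in HepLPC livers, beside 139 to 153 RPKM in normal ones. S100a11 was at 22.3, 40.7 and 25.9 RPKM in PBS replicates 1 to 3 and 3.54, 6.52 and 7.97 RPKM in HepLPC replicates 1 to 3 (log2 difference -2.14, SE 0.27, adjusted p = 0.00516). Anxa2 and S100a10, which form a complex, fell by similar amounts, 1.83 and 1.71. Anxa2 was at 46.7, 48.6 and 57.2 RPKM in PBS replicates 1 to 3 and 9.21, 13.1 and 20.1 RPKM in HepLPC replicates 1 to 3, and S100a10 at 81.5, 58.8 and 86.6 RPKM in PBS replicates 1 to 3 and 16.7, 27.4 and 23.8 RPKM in HepLPC replicates 1 to 3. The 6 values of each gene separated into a high PBS and a low HepLPC group. S100a6 and S100a4, of fibroblasts and macrophages, fell by 1.68 and 1.18, and Anxa5, Anxa1, Anxa7, Anxa13 and Anxa4 by 1.64, 1.34, 1.17, 1.14 and 0.78. Anxa3 did not pass (-0.43, adjusted p = 0.398). S100a8 and S100a9, the neutrophil pair, differed by -1.19 and -1.02 (adjusted p = 0.162 and 0.151).

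Among macrophage genes, falls were called for the recruited and scar-associated type. Of 16 tested markers 9 fell and none rose (median -1.15), with 7 falls without the 2 libraries. All 16 differences lay below 0, also after rescaling, with 5 to 8 falls when 1 library was left out, fewest without HepLPC replicate 1 or PBS replicate 3. Summed levels of that list were 433 to 547 RPKM in PBS, 184 to 287 RPKM in HepLPC and 148 to 177 RPKM in normal livers. Lyz2, lysozyme of myeloid cells, was at 78.4, 173 and 75.2 RPKM in PBS replicates 1 to 3 and 18.03, 20.3 and 21.99 RPKM in HepLPC replicates 1 to 3 (log2 difference -2.27, SE 0.28, adjusted p = 0.00492). The HepLPC values were close to each other and to the normal values of 19.1, 18.5 and 15.1 RPKM. Cd9, a tetraspanin that marks scar macrophages but also duct cells, was at 8.67, 11.2 and 14.1 RPKM in PBS replicates 1 to 3 and 2.33, 2.81 and 3.36 RPKM in HepLPC replicates 1 to 3 (log2 difference -1.67, SE 0.18, adjusted p = 0.00288). Gpnmb was at 18.3, 20.1 and 19.8 RPKM in PBS replicates 1 to 3 and 5.29, 7.79 and 6.47 RPKM in HepLPC replicates 1 to 3 (log2 difference -1.45, SE 0.18, adjusted p = 0.00472), again with tight groups. Trem2, a lipid receptor and defining marker of this macrophage type, was at 1.45, 2.81 and 1.51 RPKM in PBS replicates 1 to 3 and 0.0835, 0.208 and 0.371 RPKM in HepLPC replicates 1 to 3 (log2 difference -1.24, SE 0.18, adjusted p = 0.00942). It was near the limit of the filter even in PBS livers. Spp1, osteopontin, made by ducts as well as macrophages, fell by 2.93, the galectins Lgals3 and Lgals1 by 1.30 and 1.12 and Mmp12 by 1.40. General myeloid genes of the same list did not pass: Cd68 differed by -0.33, Ctss by -0.42 and Tyrobp by -0.36 (adjusted p = 0.502, 0.448 and 0.516).

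Kupffer cells, the resident macrophages of the sinusoid, were measured by a list of their own. None of 16 markers was called by limma, also without the 2 libraries or by limma-voom on recovered reads. There were 3 at an unadjusted p under 0.05 and 1 called lower without HepLPC replicate 3. Their median of -0.19 was close to that of all genes. Of the 16 differences 15 lay below 0, and 9 after rescaling, where 73.9% of all genes lay below 0 on the deposited scale. Clec4f, found on Kupffer cells alone within the liver, was at 137, 100.2 and 95.8 RPKM in PBS replicates 1 to 3 and 81.9, 107 and 103 RPKM in HepLPC replicates 1 to 3 (log2 difference -0.18, SE 0.18, adjusted p = 0.639). Marco, a scavenger receptor, was at 22.1, 15.8 and 16.3 RPKM in PBS replicates 1 to 3 and 4.34, 9.12 and 20.04 RPKM in HepLPC replicates 1 to 3 with overlapping groups (adjusted p = 0.454). Cd5l and Vsig4 differed by -0.31 and -0.23 (adjusted p = 0.614 and 0.659). The list summed to 418 to 623 RPKM in PBS and 319 to 487 RPKM in HepLPC livers, overlapping ranges. The difference between the recruited and the resident lists was not itself tested. Outside the lists and named after their values were seen, Clec10a, a lectin of macrophages and dendritic cells, was at 4.802, 3.47 and 4.69 RPKM in PBS replicates 1 to 3 and 1.16, 1.32 and 0.954 RPKM in HepLPC replicates 1 to 3 (log2 difference -1.305, SE 0.16, adjusted p = 0.00452) and Irf8, a transcription factor of that lineage, fell by 0.73.

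Lists of other blood-derived cells held no call with all libraries. By limma, as by limma-voom on recovered reads, 0 of 12 T and NK cell markers passed (median 0.18), 0 of 5 genes of MHC class II, 0 of 4 mast cell genes, 0 of 2 B cell genes and 0 of 2 neutrophil genes, while 1, 3, 2, 0 and 2 of them had an unadjusted p under 0.05. Without HepLPC replicate 3, 2 genes of MHC class II and 1 T and NK cell marker fell. Among the list members below the filter were Cd3e of T cells and Mpo of neutrophils, so these cells were thinly sampled. Cd74, the chain that guards class II molecules, was at 197, 144 and 167 RPKM in PBS replicates 1 to 3 and 88.3, 86.8 and 167 RPKM in HepLPC replicates 1 to 3 (adjusted p = 0.237), with HepLPC replicate 3 at the level of a PBS library and the other 2 lower. Mcpt2, a mast cell protease, was at 14.8, 13.1 and 29.8 RPKM in PBS replicates 1 to 3 and 21.3, 14.9 and 8.49 RPKM in HepLPC replicates 1 to 3 (adjusted p = 0.673), levels that overlapped fully and lay above those of normal livers (1.01, 2.03 and 0.814 RPKM). Jchain of plasma cells was at 19.7, 17.6 and 14.97 RPKM in PBS replicates 1 to 3 and 20.5, 7.47 and 27.99 RPKM in HepLPC replicates 1 to 3 (adjusted p = 0.938).

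**Figure D4:**
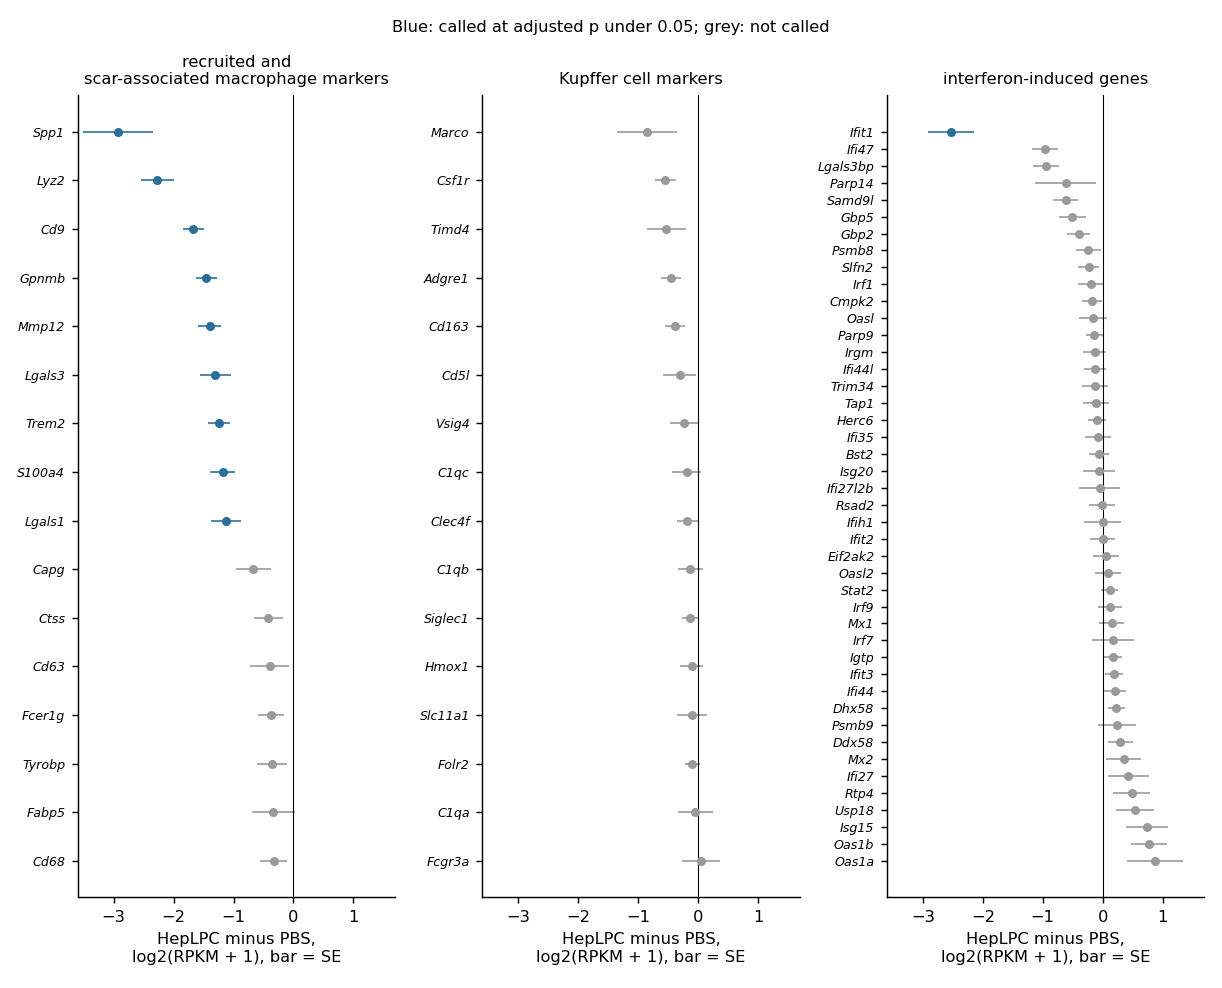
Log2 difference of HepLPC minus PBS with its SE for tested members of 3 immune lists (blue called, grey not called; 1 uncalled interferon-induced gene is not shown). 9 of 16 recruited macrophage markers are called lower, 0 of 16 Kupffer markers, and Ifit1 alone among 45 interferon-induced genes.

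Interferon-induced genes, which defend against viruses and are switched on as a set, gave a single call. Of 45 tested 1 fell (2.22%, beside 2.93% of all tested genes), none rose and the median was -0.01. Without HepLPC replicate 3 there were 4 falls, and without PBS replicate 3 there were 0. The fall was Ifit1, which binds viral RNA caps, at 4.21, 5.68 and 5.19 RPKM in PBS replicates 1 to 3 and 0.0751, 0.02501 and 0 RPKM in HepLPC replicates 1 to 3 (log2 difference -2.54, SE 0.38, adjusted p = 0.0106). Behind these values stood 155, 242 and 212 recovered reads in the PBS libraries and 3, 1 and 0 in the HepLPC libraries. Normal livers held 7.99, 2.07 and 1.65 RPKM, so the HepLPC values were the lowest of all 3 groups. Close relatives did not pass. Ifit3 was at 3.05, 3.11 and 2.53 RPKM in PBS replicates 1 to 3 and 2.77, 3.39 and 4.25 RPKM in HepLPC replicates 1 to 3 (log2 difference 0.19, adjusted p = 0.584), and Ifit2 at 6.89, 7.73 and 7.38 RPKM in PBS replicates 1 to 3 and 8.79, 4.82 and 9.23 RPKM in HepLPC replicates 1 to 3 (log2 difference 0.00, adjusted p = 0.993). Both overlapped between the groups, and the difference between Ifit1 and its relatives was not itself tested. Isg15, a ubiquitin-like protein, was at 3.74, 5.37 and 3.14 RPKM in PBS replicates 1 to 3 and 3.97, 12.3 and 7.84 RPKM in HepLPC replicates 1 to 3 (adjusted p = 0.343), and Oas1a, a sensor of double-stranded RNA, at 6.44, 7.57 and 3.42 RPKM in PBS replicates 1 to 3 and 5.42, 20.04 and 11.8 RPKM in HepLPC replicates 1 to 3 (adjusted p = 0.399). HepLPC replicate 2 had the highest value of both genes. Mx1 differed by 0.15 and Rsad2 by -0.01. Ifit1bl, a relative of Ifit1 with which reads may be shared, was under the filter at 0.232, 0.487 and 0.194 RPKM in PBS replicates 1 to 3 and 0.165, 0.124 and 0.183 RPKM in HepLPC replicates 1 to 3.

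The core of the interferon-stimulated response element, GAAANNGAA on either strand, was found in 9.71% of all promoters and 7.45% of those of tested genes. It was found in 23 of 35 interferon-induced genes with a promoter entry. Ifit1 has no entry in the table. Ifit3 and Oas1a are shown as members that carry the element and were not called. In Ifit3 there were 2 copies on the other strand, starting 43 and 24 bases before the gene. In Oas1a 2 overlapping copies on the strand of the gene start 41 and 35 bases before it. Both windows are from the plus strand of GRCr8, chr1:241527076-241527325 for Ifit3 and chr12:41330216-41330465 for Oas1a, with the copies in capitals.
Ifit3: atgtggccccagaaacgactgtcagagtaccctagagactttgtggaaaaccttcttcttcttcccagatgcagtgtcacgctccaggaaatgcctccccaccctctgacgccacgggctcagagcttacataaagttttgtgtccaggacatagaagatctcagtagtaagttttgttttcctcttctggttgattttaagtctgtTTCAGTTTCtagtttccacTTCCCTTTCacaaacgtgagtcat
Oas1a: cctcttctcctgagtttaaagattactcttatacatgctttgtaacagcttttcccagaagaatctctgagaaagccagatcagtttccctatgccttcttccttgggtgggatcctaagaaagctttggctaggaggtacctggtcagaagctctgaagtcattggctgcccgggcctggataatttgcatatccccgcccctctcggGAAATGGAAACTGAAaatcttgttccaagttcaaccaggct

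Of 23 chemokines and cytokines 2 fell, and 1 fell when PBS replicate 2 or 3 or HepLPC replicate 1 or 2 was left out. Ccl21, which draws lymphocytes and dendritic cells to lymphoid tissue and portal tracts, was at 64.7, 26.5 and 68.3 RPKM in PBS replicates 1 to 3 and 7.596, 6.597 and 11.4 RPKM in HepLPC replicates 1 to 3 (log2 difference -2.42, SE 0.34, adjusted p = 0.008001), and Cxcl16 fell by 1.23. No alternative lost the call of Ccl21. The inflammatory ligands Ccl2, Cxcl10, Cxcl1 and Il1b differed by -0.75, -0.13, -0.98 and -0.45 (adjusted p = 0.338, 0.808, 0.387 and 0.4599), none past the threshold. Of 12 genes of mucosal defence 3 fell: Lcn2, Lyz2 and Defb1, a beta-defensin, which was at 40.97, 8.91 and 49.9 RPKM in PBS replicates 1 to 3 and 2.998, 2.73 and 5.79 RPKM in HepLPC replicates 1 to 3 (log2 difference -2.57, SE 0.53, adjusted p = 0.0355; lost in 15 of 22 alternatives). Of 25 complement genes 1 fell (4.0%, beside 2.93% of all tested genes). It was C7, a part of the membrane attack complex, at 19.5, 31.00 and 32.8 RPKM in PBS replicates 1 to 3 and 7.44, 4.65 and 10.1 RPKM in HepLPC replicates 1 to 3 (log2 difference -1.79, SE 0.26, adjusted p = 0.00863). Its HepLPC values stayed above those of normal livers (1.45, 1.801 and 1.59 RPKM). Msln, mesothelin of the liver surface, was at 3.604, 10.9 and 4.100 RPKM in PBS replicates 1 to 3 and 0.304, 0.351 and 0.1300 RPKM in HepLPC replicates 1 to 3 (log2 difference -2.38, SE 0.31, adjusted p = 0.00534), and no alternative lost the call. The mesothelium and portal fibroblast list of 15 genes summed to 16.2 to 32.7 RPKM in PBS and 9.94 to 16.1 RPKM in HepLPC livers, with 4 members tested and 1 called.

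Cell cycle genes lay lower with few calls. All 20 tested mitosis genes and all 20 genes of G1/S and replication had differences below 0 (medians -0.54 and -0.44; 20 and 18 of them after rescaling), and 1 of each fell: the spindle checkpoint kinase Bub1 by 0.59 and the nucleotide reductase Rrm2 by 0.88. Both calls were absent after rescaling, and Bub1 was lost in 13 of 20 and Rrm2 in 15 of 21 alternatives. An unadjusted p under 0.05 was seen in 14 mitosis and 12 G1/S genes, beside 1792 of all 11124 genes. Limma-voom called 3 and 0 of them lower. All HepLPC values lay below all PBS values in 14 and 11 of them, against 15.6% of all tested genes. When 1 library was left out there were 0 to 3 and 0 to 2 falls. Mki67, the marker of cycling cells, was at 1.47, 2.399 and 1.88 RPKM in PBS replicates 1 to 3 and 0.732, 0.701 and 1.13 RPKM in HepLPC replicates 1 to 3 (log2 difference -0.65, adjusted p = 0.0569), with every PBS value above every HepLPC value. Top2a and Cdk1 differed by -0.74 and -0.78 (adjusted p = 0.0809 and 0.112). Summed mitosis genes were 43.2 to 58.2 RPKM in PBS, 23.7 to 33.2 RPKM in HepLPC and 7.21 to 12.9 RPKM in normal livers.

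Immediate early genes, which answer stress and growth factors within minutes, had 3 falls among 17, and all 17 differences lay below 0, also after rescaling (median -0.78). This list gave 1 to 4 falls when 1 library was left out, fewest without HepLPC replicate 1 or PBS replicate 3. Maff, a small MAF protein that pairs with NRF2 among others, was at 2.59, 1.56 and 2.57 RPKM in PBS replicates 1 to 3 and 0.4699, 0.256 and 0.308 RPKM in HepLPC replicates 1 to 3 (log2 difference -1.26, SE 0.16, adjusted p = 0.00534). Klf6 and Fosl2 fell by 0.99 and 0.98, while Egr1, Jun and Myc differed by -0.99, -1.02 and -1.06 (adjusted p = 0.173, 0.103 and 0.311). Genes of cell death, named in the title of the series, gave 1 fall in 25 pro-apoptotic and 0 calls in 11 anti-apoptotic genes. These are 4.0% and 0%, beside 3.07% of all tested genes. Differences lay below 0 in 23 and 10 of them (16 and 9 after rescaling), against 73.9% of all genes. Of the 11 anti-apoptotic genes 4 had an unadjusted p under 0.05 and 1 was called by limma-voom. Of the latter list 1 also fell without the 2 libraries. The fall was the death ligand Tnfsf10 (TRAIL), at 8.36, 10.7 and 12.1 RPKM in PBS replicates 1 to 3 and 5.92, 4.04 and 5.08 RPKM in HepLPC replicates 1 to 3 (log2 difference -0.92, SE 0.17, adjusted p = 0.0235; lost in 6 of 22 alternatives). Bax overlapped at 17.1, 10.6 and 12.9 RPKM in PBS replicates 1 to 3 and 10.5, 17.8 and 9.804 RPKM in HepLPC replicates 1 to 3. Gadd45a, a p53 target and growth arrest gene, was at 14.6, 16.8 and 17.7 RPKM in PBS replicates 1 to 3 and 8.83, 8.604 and 8.48 RPKM in HepLPC replicates 1 to 3 (log2 difference -0.85, SE 0.16, adjusted p = 0.0287; lost in 9 of 22), and 1 of 17 p53 targets was called. Of 24 genes of the unfolded protein response 1 fell (4.17%, beside 2.93% of all tested genes). It was the phosphatase subunit Ppp1r15a, by 0.69, a call lost in 19 of 21 alternatives.

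**Figure D5:**
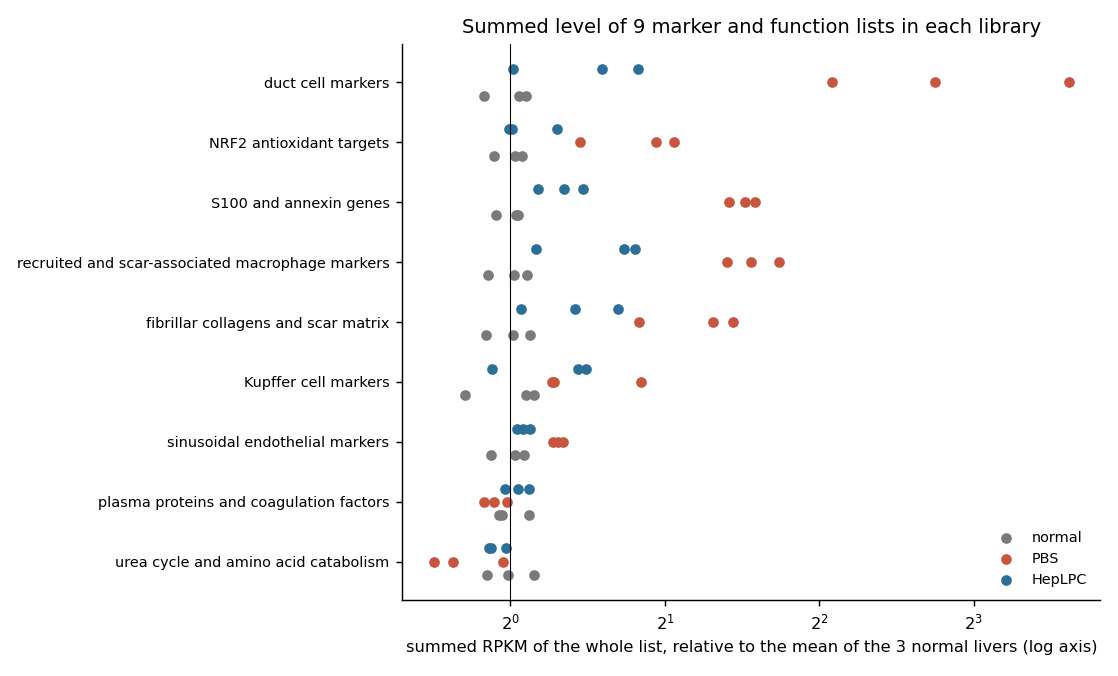
Summed RPKM of 9 whole gene lists in each library, relative to the mean of the 3 normal livers, on a log axis. The PBS points of the duct, NRF2, S100 and annexin, recruited macrophage, scar matrix and sinusoidal endothelial lists lie to the right of all HepLPC points. Those of the Kupffer cell and hepatocyte lists overlap.

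Hepatocyte genes for secreted proteins and nitrogen metabolism gave almost no calls, beside 3.07% of all tested genes. Of 28 plasma proteins and coagulation factors 0 passed (median 0.06), and of 26 genes of the urea cycle and amino acid breakdown 0 passed (median 0.23), by limma as by limma-voom. Of these, 1 and 4 had an unadjusted p under 0.05, beside 1792 of all 11124 genes. Differences lay below 0 in 10 of the 28 and 4 of the 26 (4 and 0 after rescaling), against 73.9% of all genes. All HepLPC values lay above all PBS values in 5 and 4 genes, against 2.79% of all tested genes. They lay below in 1 and 1, against 15.6%. Without the 2 libraries 1 gene of amino acid breakdown or the urea cycle rose. Alb was at 53885, 47139 and 54379 RPKM in PBS replicates 1 to 3 and 64031, 60982 and 53036 RPKM in HepLPC replicates 1 to 3, and Cps1, the first enzyme of the urea cycle, at 579.8, 667 and 656 RPKM in PBS replicates 1 to 3 and 672, 481 and 659 RPKM in HepLPC replicates 1 to 3. These overlapped, and transthyretin (Ttr) differed by 0.66 (adjusted p = 0.258). Of 16 hepatocyte transcription factors 1 fell. It was Nr1i3, the drug-sensing receptor CAR, at 7.17, 9.29 and 11.1 RPKM in PBS replicates 1 to 3 and 3.23, 3.38 and 4.72 RPKM in HepLPC replicates 1 to 3 (log2 difference -1.09, SE 0.21, adjusted p = 0.0251), below its normal level of 8.52, 7.96 and 5.41 RPKM, and lost in 6 of 22 alternatives. Hnf4a, the master regulator of the hepatocyte, was at 82.5, 102 and 94.02 RPKM in PBS replicates 1 to 3 and 103, 71.4 and 87.6 RPKM in HepLPC replicates 1 to 3 (adjusted p = 0.785).

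By zone, Hsd17b13 was the 1 call among 16 periportal genes (median 0.23), and 3 rose without the 2 libraries. In that list 3 differences lay below 0, and 0 after rescaling. Histidase (Hal) was at 60.2, 37.6 and 31.5 RPKM in PBS replicates 1 to 3 and 88.8, 74.5 and 51.2 RPKM in HepLPC replicates 1 to 3 (log2 difference 0.74, adjusted p = 0.239) and Cyp2f4 at 18.8, 18.8 and 18.5 RPKM in PBS replicates 1 to 3 and 25.3, 22.7 and 23.6 RPKM in HepLPC replicates 1 to 3 (log2 difference 0.34, adjusted p = 0.156). Cyp2f4 separated without passing. Among 17 pericentral genes, which need Wnt signals from the central vein, the Wnt inhibitor Nkd1 fell by 0.76. That call was lost in 16 of 20 alternatives. The median of this list was 0.205, and 6 differences lay below 0, 5 after rescaling. All HepLPC values lay above all PBS values in 5 pericentral and 3 periportal genes, against 2.79% of all tested genes. They lay below in 1 and 0, against 15.6%. The difference between the zones was not tested. Glul, glutamine synthetase of the last hepatocytes before the vein, was at 65.3, 95.1 and 78.1 RPKM in PBS replicates 1 to 3 and 122, 119 and 113 RPKM in HepLPC replicates 1 to 3 (log2 difference 0.58, adjusted p = 0.0648; 0.0359 after rescaling). All HepLPC values of Glul lay above all PBS values and above normal ones (67.01, 66.9 and 70.9 RPKM).

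Of 29 P450 genes of drug metabolism Cyp2c24 alone was called (3.45%, beside 3.07% of all tested genes). Cyp2c11, the main P450 of male rat liver, was at 258, 597 and 183 RPKM in PBS replicates 1 to 3 and 709.7, 1029 and 725 RPKM in HepLPC replicates 1 to 3 (log2 difference 1.41, adjusted p = 0.0845), beside 1395, 1047 and 1077 RPKM in normal livers. Its groups were separate, but the test was not passed. Of 30 conjugating enzymes 4 fell, and 1 fell without the 2 libraries or after rescaling, with 1 to 4 falls when 1 library was left out, fewest without HepLPC replicate 1 or PBS replicate 3. Ugt2b7, a glucuronosyl transferase, was at 42.5, 17.5 and 2.33 RPKM in PBS replicates 1 to 3 and 0.402, 0.562 and 0.685 RPKM in HepLPC replicates 1 to 3 (log2 difference -3.17, SE 0.72, adjusted p = 0.0498). PBS replicate 3 was far below the other PBS libraries, and the call was lost in 18 of 22 alternatives. Gstm1, a mu-class glutathione transferase, was at 2288, 1669 and 2461 RPKM in PBS replicates 1 to 3 and 1057, 872 and 1111 RPKM in HepLPC replicates 1 to 3 (log2 difference -1.07, SE 0.19, adjusted p = 0.0193), and Ugt2b35 fell by 0.66.

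Lipid genes showed few calls. Of 19 genes of fatty acid synthesis 0 passed by limma or limma-voom (median 0.24; 3 at an unadjusted p under 0.05), while 1 fell without PBS replicate 1 and 1 rose without the 2 libraries. Scd, the main desaturase of liver, was at 370.3, 351 and 490.0 RPKM in PBS replicates 1 to 3 and 959.6, 414 and 687 RPKM in HepLPC replicates 1 to 3 (adjusted p = 0.318) and Fasn at 29.7, 38.1 and 48.3 RPKM in PBS replicates 1 to 3 and 70.2, 21.1 and 50.8 RPKM in HepLPC replicates 1 to 3 (adjusted p = 0.862). Both overlapped, with HepLPC replicate 2 lowest in its group. Of 16 lipid droplet genes Hsd17b13 rose and Cidea, which enlarges droplets, fell, at 12.1, 10.4 and 16.7 RPKM in PBS replicates 1 to 3 and 4.92, 6.597 and 3.46 RPKM in HepLPC replicates 1 to 3 (log2 difference -1.24, SE 0.22, adjusted p = 0.0185). Fatty acid oxidation (28 genes), cholesterol synthesis (28) and apolipoproteins (21) had 0 calls each by both tools, with 3, 3 and 4 at an unadjusted p under 0.05. Without the 2 libraries that stood apart 2 apolipoprotein genes rose and 1 cholesterol gene fell, and after rescaling 1 gene of fatty acid oxidation rose. Of the 21 apolipoprotein genes 6 had all HepLPC values above all PBS values, against 2.79% of all tested genes. In 1 of them all HepLPC values lay below, against 15.6%. Apoa4, an apolipoprotein that hepatocytes raise with fat load, was at 280.4, 149 and 101 RPKM in PBS replicates 1 to 3 and 417, 726 and 337 RPKM in HepLPC replicates 1 to 3 (log2 difference 1.52, adjusted p = 0.0648; log2 difference 1.601, adjusted p = 0.0167 without the 2 libraries). All HepLPC values exceeded all PBS values. In bile acid metabolism Abcc3, an exporter of the basolateral membrane, was the single call among 21 genes, at 5.87, 5.82 and 12.2 RPKM in PBS replicates 1 to 3 and 1.45, 0.369 and 1.41 RPKM in HepLPC replicates 1 to 3 (log2 difference -2.09, SE 0.29, adjusted p = 0.00797). Cyp7a1, which sets the rate of bile acid synthesis, overlapped at 105, 24.02 and 50.3 RPKM in PBS replicates 1 to 3 and 85.6, 69.95 and 40.8 RPKM in HepLPC replicates 1 to 3.

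Metal and sugar genes added single falls. Mt2A, a metallothionein that binds zinc, was at 419.7, 321 and 387 RPKM in PBS replicates 1 to 3 and 69.5, 69.5 and 66.7 RPKM in HepLPC replicates 1 to 3 (log2 difference -2.43, SE 0.41, adjusted p = 0.0171), with HepLPC values within the normal range of 76.3, 101 and 24.8 RPKM. Mt2A was the single call among 8 tested metallothionein and zinc genes (median -0.17), and 0 fell without the 2 libraries that stood apart. Among 17 iron genes Id1, a target of BMP signals, fell by 1.002. Isoforms of glycolysis that adult hepatocytes use little had 4 falls in 18, Hk1, Pygb, Pkm and Aldoa (by 0.91, 0.89, 0.81 and 0.81), and 1 after rescaling, with 1 to 5 falls when 1 library was left out, fewest without HepLPC replicate 1 or PBS replicate 3. Liver isoforms had 0 calls in 15 by limma and limma-voom, with 5 at an unadjusted p under 0.05. Aldoa was at 38.2, 33.7 and 39.3 RPKM in PBS replicates 1 to 3 and 20.5, 22.1 and 19.5 RPKM in HepLPC replicates 1 to 3, a change small in size and clear of the spread. Car2, carbonic anhydrase 2 of ducts and altered hepatocytes, was at 143, 70.9 and 218 RPKM in PBS replicates 1 to 3 and 27.7, 29.1 and 31.4 RPKM in HepLPC replicates 1 to 3 (log2 difference -2.11, SE 0.42, adjusted p = 0.0316; lost in 11 of 22 alternatives). It was the single call among 8 tested carbonic anhydrases (median 0.08), of which 4 had differences below 0. The list held 0 calls after rescaling or without the 2 libraries that stood apart. In 2 of the 8 all HepLPC values lay above all PBS values, against 2.79% of all tested genes, and in 1 below, against 15.6%.

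Sinusoidal endothelium had 0 calls in 18 markers by limma and by limma-voom, and 1 had an unadjusted p under 0.05. Differences lay below 0 in 16 of the 18, and in 9 after rescaling. The whole list of 20 summed to 623 to 653 RPKM in PBS and 530 to 563 RPKM in HepLPC livers, ranges that did not overlap. Normal livers held 472 to 547 RPKM. Lyve1 was at 32.4, 34.5 and 30.9 RPKM in PBS replicates 1 to 3 and 31.4, 40.99 and 25.1 RPKM in HepLPC replicates 1 to 3 (adjusted p = 0.937). Of 14 markers of other vessels 1 fell, the receptor Tie1, by 0.52 (lost in 14 of 22 alternatives), and 3 fell without the 2 libraries. Aqp1, a water channel of capillary-like and duct cells, was at 16.5, 19.9 and 24.3 RPKM in PBS replicates 1 to 3 and 11.2, 4.84 and 10.7 RPKM in HepLPC replicates 1 to 3 (adjusted p = 0.0519), with HepLPC replicate 2 the lowest library. Clock genes had 0 calls in 16, and genes of fasting and glucocorticoids 0 in 18, by both tools, with 4 and 0 at an unadjusted p under 0.05. Of the clock genes 1 fell without PBS replicate 1, and of the fasting genes 1 without the 2 libraries. Nr1d1, a repressor of the clock, was at 1.83, 2.24 and 1.35 RPKM in PBS replicates 1 to 3 and 9.46, 5.66 and 8.02 RPKM in HepLPC replicates 1 to 3 (log2 difference 1.62, adjusted p = 0.0832). Its groups were separate, and no label used here gives the time of day of sampling.

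The 15 genes that rose hold 8 with a gene name. Hes6, a transcription factor of the HES family present in hepatocytes, was at 43.04, 43.4 and 29.4 RPKM in PBS replicates 1 to 3 and 65.5, 86.4 and 106 RPKM in HepLPC replicates 1 to 3 (log2 difference 1.13, SE 0.21, adjusted p = 0.0245), and normal livers held 104, 105 and 83.1 RPKM. The groups were separate, and the call was lost in 6 of 22 alternatives. Sult1c2a, a sulfotransferase, was at 16.2, 18.8 and 22.5 RPKM in PBS replicates 1 to 3 and 47.3, 33.9 and 31.4 RPKM in HepLPC replicates 1 to 3 (log2 difference 0.92, SE 0.19, adjusted p = 0.0326), above the normal values of 20.3, 25.01 and 26.6 RPKM. Sdr42e1, a dehydrogenase of the short-chain family, likewise lay above normal (12.6, 9.76 and 11.6 RPKM), at 8.12, 10.3 and 7.27 RPKM in PBS replicates 1 to 3 and 22.4, 13.3 and 16.2 RPKM in HepLPC replicates 1 to 3. Fahd1, a mitochondrial hydrolase, was at 24.8, 31.2 and 26.6 RPKM in PBS replicates 1 to 3 and 39.9, 51.2 and 43.2 RPKM in HepLPC replicates 1 to 3 (log2 difference 0.68, SE 0.14, adjusted p = 0.0347). Olr59, annotated as an olfactory receptor, and Meiob, a meiosis gene, rose by 1.003 and 0.86 at levels of a few RPKM. A transfer RNA for glutamine (Trnaq-cug) and 7 rows with placeholder names make up the rest with Hsd17b13.

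The largest fall of all was in Rn7sl1, the RNA of the signal recognition particle, at 20.1, 16.9 and 18.6 RPKM in PBS replicates 1 to 3 and 0, 0 and 2.88 RPKM in HepLPC replicates 1 to 3 (log2 difference -3.63, SE 0.47, adjusted p = 0.00534). It rested on 107, 104 and 110 recovered reads in PBS and 0, 0 and 15 in HepLPC livers, and this short RNA has many near copies in the genome, so its level is uncertain. Cryab, a small heat shock protein, was at 16.5, 12.2 and 22.6 RPKM in PBS replicates 1 to 3 and 1.98, 4.83 and 2.66 RPKM in HepLPC replicates 1 to 3 (log2 difference -2.14, SE 0.27, adjusted p = 0.00516). Adamtsl2, a matrix protein that binds latent TGF-beta binding protein, was at 7.85, 8.29 and 11.6 RPKM in PBS replicates 1 to 3 and 1.403, 1.205 and 2.46 RPKM in HepLPC replicates 1 to 3 (log2 difference -1.94, SE 0.20, adjusted p = 0.00241), and no alternative lost the call. Pcp4, a calmodulin-binding peptide listed at 0 in all 3 normal livers, fell by 2.02. Of Wnt genes, Sfrp1, a secreted inhibitor, fell by 1.18, the ligand Wnt4 by 0.60 and Porcn, which lipidates Wnt ligands, by 0.61. Adamtsl2, Pcp4 and these 3 were named after their values were seen. Of the 326 falls 112 lie in at least 1 of the gene lists, 35 in lists of scar genes, 31 in injury lists such as NRF2 targets and 25 in duct lists, with shared members counted in each, and 214 lie in none.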

How the data were processed

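Total RNA of whole liver was sequenced on Illumina machines after TruSeq library preparation, per the labels' protocols. The authors deposited a table of RPKM values per library, per the file headers. Tools and builds named in the submitters' processing notes are StringTie, HISAT2 and hg19, a human build, although the rows carry rat gene symbols; their roles and the annotation are not given in the sources used here. Of 40154 rows 15120 were 0 in all 9 libraries.

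From these values, log2(RPKM + 1) was computed and genes with at least 1 RPKM in at least 3 of 9 libraries were kept. A single limma model (version 3.58.1 in R 4.3.3; empirical Bayes with a mean-variance trend) held all 9 libraries in 3 groups, with 6 residual degrees of freedom, and p-values were adjusted by Benjamini and Hochberg over 11124 genes. The code was tested on simulated data. For all 20959 genes above 0 in 3 or more libraries, the RPKM values were whole multiples of what 1 read is worth, within 0.01 reads, which gave reads and the depth per library. The smallest whole reads that fit were taken. For genes above 0 in few libraries such a fit is easily found, so it does not show that their reads are right. RPKM levels are relative, so a rise of very abundant genes lowers all others.

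Named genes were the 20 largest falls and rises called without overlap between the groups, at 1 RPKM or more in the higher group and without placeholder names, up to 4 called members of each list (otherwise the 2 of highest level), the 7 marker genes, and others named after their values were seen. Members and the 63 lists (1351 entries) were chosen with earlier results of these data known. The 22 alternatives covered the pseudocount, filter, scaling, model, pairing and single libraries. Bcl2 was below the filter and was not tested.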

Additional observations from a re-analysis of the deposited data

How the results depend on the processing

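The 341 calls (326 lower, 15 higher) were recomputed under 22 alternatives, all of which ran, and the falls outnumbered the rises in each. A filter on a mean of at least 5 RPKM, which tests fewer genes, gave 80 calls (77 lower, 3 higher), rescaling by the median of ratios 204 (183 lower), quantile normalization 213 (181 lower, 32 higher), the 6 PBS and HepLPC libraries alone 86 (82 lower, 4 higher), library weights 810 (734 lower, 76 higher), and limma-voom on recovered reads 8 higher. Without PBS replicate 1 and HepLPC replicate 2 there were 26 higher. Leaving out 1 library at a time gave 90 to 398 calls, 90 to 382 lower and 0 to 19 higher, with the fewest without PBS replicate 3 and HepLPC replicate 1. The cause of these shifts was not tested. With the replicate number as a block there were 198 calls (194 lower, 4 higher). Same-numbered PBS and HepLPC libraries deviated together with correlations of -0.412, -0.365 and 0.31, and replicate 3 alone correlated best with its own number, so the numbers were not taken to pair the samples. Of 135 called genes among the 274 named, 39 kept their call in every alternative that tested them, 41 lost it in more than 11, and none changed sign in a call. Of the 139 uncalled, 34 were called in at least 1 alternative. Depth limits the lowest genes, such as Ifit1 with 3, 1 and 0 reads in HepLPC livers.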

Other observations

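Growth factor and adhesion genes of the scar that belong to no comparison above gave no call with all libraries. Of 4 PDGF genes 0 passed in limma and in limma-voom, and 3 had an unadjusted p under 0.05. Without PBS replicate 1 there were 2 falls, and without the 2 libraries that stood apart 1. Pdgfc, a ligand of the PDGF alpha receptor, was at 5.23, 6.91 and 8.85 RPKM in PBS replicates 1 to 3 and 3.39, 2.55 and 2.93 RPKM in HepLPC replicates 1 to 3 (log2 difference -0.995, adjusted p = 0.0658). All its PBS values lay above its HepLPC values. Of 11 integrins 0 passed in either, and 3 had an unadjusted p under 0.05, while 2 fell without the 2 libraries. Itgb1, the shared beta chain of the collagen receptors, was at 38.4, 54.3 and 60.6 RPKM in PBS replicates 1 to 3 and 33.4, 24.7 and 37.7 RPKM in HepLPC replicates 1 to 3 (adjusted p = 0.123), highest in PBS replicates 2 and 3. Among the cathepsin genes the other 2 falls were Lgmn, legumain, by 0.97 and the inhibitor Cst3, cystatin C, by 0.64.

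The hormone genes of the hepatocyte gave no call. Of 17 genes of the growth hormone and leptin receptor axis 13 had differences below 0 (10 after rescaling), with a median of -0.305. In 2 of them all HepLPC values lay below all PBS values, against 15.6% of all tested genes. Igf1, the growth factor through which growth hormone acts, was at 258, 378 and 307 RPKM in PBS replicates 1 to 3 and 339.9, 408 and 445 RPKM in HepLPC replicates 1 to 3 (adjusted p = 0.404), and 0 of 17 genes of that axis passed in limma or in limma-voom, with 2 at an unadjusted p under 0.05. Apoc3, an inhibitor of lipoprotein lipase, was at 3346, 2390.2 and 2359 RPKM in PBS replicates 1 to 3 and 3742, 6133 and 3625 RPKM in HepLPC replicates 1 to 3 (log2 difference 0.71, adjusted p = 0.165). Its HepLPC values were all above its PBS values. Thrsp, a gene of fat synthesis that answers thyroid hormone, was also separate, at 536, 369.7 and 403 RPKM in PBS replicates 1 to 3 and 888, 590.4 and 631 RPKM in HepLPC replicates 1 to 3, and did not pass (adjusted p = 0.301). Hba1, a globin of red blood cells, was at 566, 1119 and 352 RPKM in PBS replicates 1 to 3 and 728, 1149 and 804 RPKM in HepLPC replicates 1 to 3 (adjusted p = 0.606). Its levels overlapped between the groups. The list of blood and other organ markers, which also holds Alb, had 0 calls in 7 tested genes. Of their differences 0 lay below 0, against 73.9% of all genes, and the median was 0.53 (0.72 after rescaling). The part of blood content in the results was not tested. Among 18 acute phase genes Lcn2 alone was called.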
